A study of Mus musculus with 19 samples.

Results

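The genes described are the nuclear-encoded subunits of the mitochondrial respiratory chain and ATP synthase, chosen as every gene whose symbol begins with Nduf followed by a, b, c, s or v, is Sdha, Sdhb, Sdhc or Sdhd, or begins with Uqcr, with Cox and a number from 4 to 8, or with Atp5. The rule found 90 of the 14459 genes in the deposited tables. They divide into 36 subunits of complex I, 7 complex I assembly factors, 4 subunits of complex II, 8 of complex III, 18 of complex IV and 15 of complex V. Another 2 genes, Atp5s and Atp5sl, match the rule by symbol and are not counted as subunits of a complex. Ndufa4 and its paralog Ndufa4l2 are counted with complex IV, where the Ndufa4 protein resides in spite of its symbol. The study measured ribosome footprints (mRNA fragments protected from nuclease by ribosomes, sequenced from the monosome fraction of a digested lysate) and cytoplasmic RNA in brain slices of Fmr1 KO and WT male C57BL/6 mice aged 28 to 35 days. Fmr1 encodes FMRP, an RNA-binding protein whose loss causes fragile X syndrome. The KO line had been backcrossed for more than 10 generations onto this background, and the design text calls KO and WT mice littermates. Each replicate pooled 8 to 10 slices from 6 to 8 mice, with CA3 cut off to enrich for CA1 per the protocol, and the slices of both genotypes were kept in artificial cerebrospinal fluid for 3 to 4 h and exposed to cycloheximide at 100 µg/ml, which arrests elongating ribosomes, before freezing. Of 19 labelled samples, the 14 with columns in the tables were used, namely 3 KO and 4 WT footprint libraries and 3 KO and 4 WT RNA libraries, and 5 samples were not analysed here.

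The respiratory chain oxidises NADH and succinate and uses the energy to pump protons across the inner mitochondrial membrane. Complex I passes electrons from NADH and complex II from succinate to ubiquinone, complex III passes them on to cytochrome c, complex IV reduces oxygen, and complex V, the ATP synthase, lets protons return and makes ATP. Most subunits are nuclear-encoded, translated on cytosolic ribosomes and imported, while a few core subunits of complexes I, III, IV and V are encoded by mitochondrial DNA. Genes of mitochondrial DNA were not analysed here. Neurons draw most of their ATP from this pathway, and synaptic activity is its main consumer in the brain.

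Footprint libraries held 15.6 M to 22.7 M estimated counts and RNA libraries 4.97 M to 9.96 M, so footprints were the more deeply sequenced assay. Levels are in TPM, an abundance per unit of gene length, and every n is 3 for KO and 4 for WT. Fmr1 itself, the check of the genotype, had footprints of 4.59 to 5.03 TPM in KO against 42.7 to 46.3 TPM in WT (adjusted p = 9.12e-12, edgeR) and RNA of 3.90 to 5.31 TPM in KO against 16.0 to 19.3 TPM in WT (adjusted p = 9.82e-08, edgeR). Markers of other cells and regions also differed in footprints between the genotypes. The summed footprints of 7 microglial markers were 376 to 398 TPM in KO and 447 to 470.3 TPM in WT, with 7 of 7 lower in KO at an adjusted p under 0.05. Those of 6 thalamic markers were 120.4 to 126 TPM in KO and 86.5 to 113 TPM in WT, with 5 of 6 higher. Those of 4 meningeal fibroblast markers were 108 to 116 TPM in KO and 139 to 161 TPM in WT, with 4 of 4 lower, and those of 2 blood markers 3.25 to 4.72 TPM in KO and 10.5 to 11.9 TPM in WT, with 2 of 2 lower. The 5 markers of CA1 pyramidal neurons summed to 279 to 292 TPM in KO and 310.4 to 320.4 TPM in WT, with 1 higher and 2 lower. The 7 general neuronal markers summed to 10236 to 10519 TPM in KO and 10427 to 10657 TPM in WT, with 1 higher and 1 lower. The 4 cortical markers summed to 117 to 135 TPM in KO and 107 to 116 TPM in WT, with 2 higher, and the 6 astrocyte markers to 3411 to 3654 TPM in KO and 3681 to 3927 TPM in WT, with 1 higher and 2 lower. The 6 oligodendrocyte markers summed to 12106 to 12659 TPM in KO and 12310.5 to 13679.8 TPM in WT, with 1 higher and 2 lower, the 5 endothelial markers to 30.9 to 37.6 TPM in KO and 30.8 to 43.7 TPM in WT, with 1 lower, and 2 choroid plexus markers to 9.13 to 17.3 TPM in KO and 7.38 to 8.85 TPM in WT, with 1 higher and 1 lower. The footprint sums of neuronal, oligodendrocyte and endothelial markers overlapped between the genotypes, and those of the other lists did not. In RNA, the sums overlapped for neuronal, oligodendrocyte, endothelial, astrocyte, cortical and choroid plexus markers. Astrocyte marker RNA summed to 3380 to 3530 TPM in KO and 3335 to 3613 TPM in WT. Thalamic sums were higher in KO RNA, with 4 of 6 passing an adjusted p under 0.05 (edgeR). Those of microglial, CA1, meningeal and blood markers were lower, with 5 of 7, 1 of 5, 1 of 4 and 2 of 2 passing. Across all genes 2.11% rose and 2.77% fell in RNA. The labels name both CA1-enriched hippocampal slices and hippocampal-cortical slices, and markers of thalamus and cortex were present in both genotypes. No gene in the tables was at 0. The part of cell composition in the results below was not tested, and fewer cells of a type and less RNA per cell cannot be told apart in such lysates.

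In footprints, 11 of the 89 members that could be tested rose in KO and 2 fell at an adjusted p under 0.05 (edgeR, Benjamini-Hochberg over all genes). Across all 14438 genes tested, 8.15% rose and 10.4% fell. The 11 were Ndufs1, Ndufs3, Ndufv1 and Ndufa10 of complex I, Sdhb of complex II, Uqcrc1, Uqcrc2 and Uqcrfs1 of complex III, and Atp5a1, Atp5c1 and Atp5f1 of complex V. Their increases were small, from 1.08-fold for Uqcrc2 to 1.15-fold for Atp5a1. The 2 that fell were Ndufa13, a complex I subunit, and Cox6b2, a tissue-restricted form of a complex IV subunit present at a low level. The median log2 fold change of the 89 was 0.016, against -0.00015 for all genes, and 53 of the 89 were positive. With each library left out in turn the count of higher members lay between 7 and 16, with 7 without KO replicate 3 and 7 without WT replicate 2, and the median between -0.0087 and 0.060, the highest without KO replicate 1. At an unadjusted p under 0.05, 25 of the 89 passed in either direction, against 31.3% of all genes.

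Counted another way, the footprint TPM of all 3 KO libraries lay above all 4 WT libraries for 20 of the 90 members and below them for 5, while across all genes this held for 15.1% and 15.6%. In RNA the same held for 10 members above and 1 below, against 9.03% and 10% of all genes. The summed share of the 90 genes in the footprint TPM of a library was 4.76% ± 0.162 in KO and 4.68% ± 0.0375 in WT (SD). In RNA it was 4.02% ± 0.189 in KO and 3.78% ± 0.152 in WT. The ranges overlapped in both assays, the lowest KO library standing at 4.58% and the highest WT library at 4.72% in footprints, and at 3.84% and 3.95% in RNA.

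**Figure D1:**
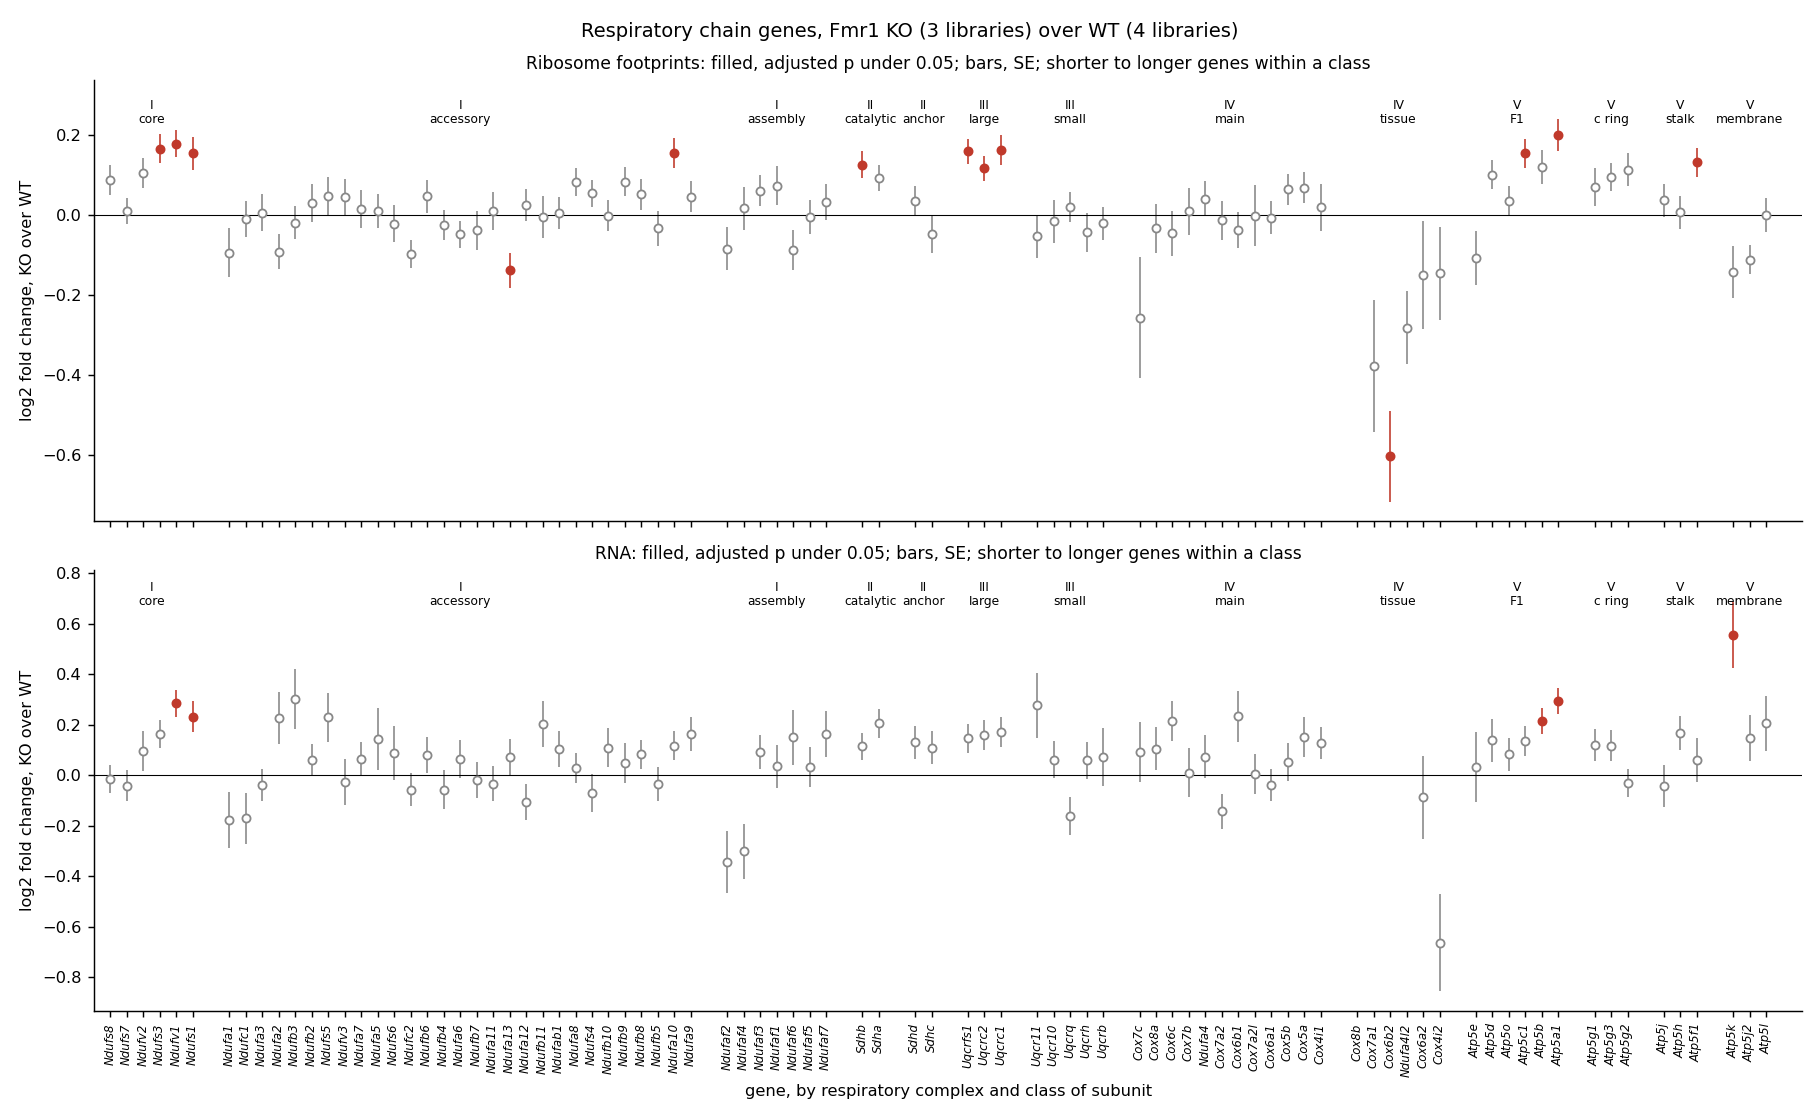
Log2 fold change of the subunits and complex I assembly factors in KO (3 libraries) over WT (4 libraries), footprints above and RNA below, with bars for the SE. Filled points passed an adjusted p under 0.05 in edgeR, and genes run from shorter to longer within each class. The 11 filled points above 0 in footprints lie among the core subunits of complex I, Ndufa10 of its accessory subunits, the catalytic subunits of complex II, the large subunits of complex III and complex V, while the small subunits of complex III and, apart from Cox7c at -0.26, the main forms of complex IV stay near 0.

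Promoter sequences were looked at because nuclear respiratory genes are known to share sites for NRF1, for ETS factors such as GABP and for YY1. RefSeq (GRCm38.p6) gave promoters, 250 bases before to 50 after the start, for 75 of the 90 members. The NRF1 letters GCGCATGCG, on either strand, were in 10 of the 75 (13.3%, against 1.95% of 27025 genes). The 27025 are genes of the annotation and not only those measured here. The ETS letters CCGGAAG were in 17 (22.7%, against 9.93%) and the YY1 letters AAGATGGC in 11 (14.7%, against 3.19%), while TATAAA was in 6 (8.00%, against 15.7%). In the 250 bases before the start alone, the YY1 letters were in 2 (2.67%, against 1.83%), near the share of all genes. There the NRF1 letters were in 7 (9.33%, against 1.64%), the ETS letters in 13 (17.3%, against 7.83%) and TATAAA in 5 (6.67%, against 14.3%). A match is a description of the letters and not a site shown to be used. The 150 bases before the start are shown for Ndufs3, with the ETS letters, and for Atp5k, Atp5g2 and Ndufa11, with the NRF1 letters. Matched letters are in capitals, and overlapping matches on both strands run together. Ndufs3 rose in footprints and Atp5k in RNA. Ndufv1, Ndufa10, Sdhb, Uqcrc1, Uqcrfs1, Atp5c1 and Atp5f1 also rose in footprints, and Ndufv1 and Atp5b in RNA. These held none of the NRF1, ETS or YY1 letters in the 250 bases before the start. The YY1 letters were in 2 of the 75 members there, so their absence says little. Ndufs1, Uqcrc2 and Atp5a1, which rose in footprints as well, had no promoter among the 75 and were not looked at.
Ndufs3 (chr2:90904722-90904871, minus strand): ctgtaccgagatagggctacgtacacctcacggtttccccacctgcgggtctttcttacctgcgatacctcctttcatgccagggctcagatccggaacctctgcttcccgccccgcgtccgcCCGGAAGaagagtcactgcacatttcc
Atp5k (chr5:108434400-108434549, minus strand): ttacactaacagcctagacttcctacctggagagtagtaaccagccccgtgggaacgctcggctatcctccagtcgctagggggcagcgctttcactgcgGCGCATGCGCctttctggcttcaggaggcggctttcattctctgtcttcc
Atp5g2 (chr15:102671048-102671197, minus strand): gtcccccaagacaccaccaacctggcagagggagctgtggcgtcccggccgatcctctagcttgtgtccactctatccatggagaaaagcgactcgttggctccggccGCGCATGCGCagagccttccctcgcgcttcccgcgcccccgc
Ndufa11 (chr17:56717612-56717761, plus strand): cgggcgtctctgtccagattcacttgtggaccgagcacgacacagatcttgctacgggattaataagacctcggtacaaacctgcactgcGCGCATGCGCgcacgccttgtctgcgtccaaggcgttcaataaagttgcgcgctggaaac

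Complex I has 7 nuclear-encoded core subunits, among them those that carry the flavin and the iron-sulfur clusters that move electrons, and many accessory subunits around them. Of the 7 core subunits 3 rose in footprints and none fell, with a median log2 fold change of 0.11. Across all genes 8.15% rose and 10.4% fell. Ndufv1, which binds the flavin that takes electrons from NADH, had 146, 142 and 139.6 TPM in KO slices and 128, 119.7, 129.9 and 124 TPM in WT slices. Every KO library was above every WT library (log2 fold change 0.18 ± 0.034 (SE), adjusted p = 0.00463, edgeR). Ndufs1, the largest iron-sulfur subunit of the complex, had 132, 119 and 118 TPM in KO slices and 110.0, 104, 113 and 113 TPM in WT slices, again without overlap and with KO replicate 1 the highest (log2 fold change 0.16 ± 0.041 (SE), adjusted p = 0.0216, edgeR). Its call was lost without KO replicate 1 (adjusted p = 0.0628) and without WT replicate 2 (adjusted p = 0.0575). Ndufs3, a core subunit of the arm that leads to ubiquinone, had 228, 224 and 229.9 TPM in KO slices and 207, 189.8, 208 and 199.9 TPM in WT slices, with a wide gap between the genotypes (log2 fold change 0.17 ± 0.036 (SE), adjusted p = 0.00889, edgeR). Others among the core subunits did not pass the test. Ndufv2, Ndufs7 and Ndufs8, which hold iron-sulfur clusters, had log2 fold changes of 0.11 ± 0.038, 0.011 ± 0.033 and 0.089 ± 0.037. The KO libraries of Ndufv2 and Ndufs8 lay above the WT libraries, and those of Ndufs7 overlapped them.

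Among the 29 accessory subunits of complex I, 1 rose and 1 fell, with a median log2 fold change of 0.0067 in footprints. Neither count was above the share over all genes, 8.15% higher and 10.4% lower. Ndufa10, one of the larger accessory subunits, had 189, 183 and 179.6 TPM in KO slices and 168, 155, 173 and 160.0 TPM in WT slices. The KO libraries were all higher (log2 fold change 0.16 ± 0.037 (SE), adjusted p = 0.0139, edgeR). Ndufa13, also known as Grim19 and needed for assembly of the complex, had 391, 426 and 394 TPM in KO slices and 425, 447, 463 and 431 TPM in WT slices. Its KO replicate 2 overlapped the lowest WT library (log2 fold change -0.14 ± 0.044 (SE), adjusted p = 0.0481, edgeR), and the call was lost without KO replicate 1 (adjusted p = 0.165), without KO replicate 3 (adjusted p = 0.13), without WT replicate 2 (adjusted p = 0.109), without WT replicate 3 (adjusted p = 0.113) and without WT replicate 4 (adjusted p = 0.0713). Ndufc2, a membrane-arm subunit and the accessory subunit with the most footprints in WT, had 858, 818 and 870.1 TPM in KO slices and 918, 886, 895 and 910.4 TPM in WT slices. All 3 KO values were the lower ones, and the change did not pass the test (log2 fold change -0.096 ± 0.034 (SE), adjusted p = 0.0707, edgeR). The other 26 accessory subunits had log2 fold changes between -0.093 for Ndufa1 and 0.084 for Ndufb9, and 3 of these, Ndufs4, Ndufa8 and Ndufb9, were higher in every KO library than in any WT library without passing the test. The 7 assembly factors of the Ndufaf series, which help build complex I and are not part of it, had no call in either direction, with a median of 0.018. Ndufaf3 had the most footprints of them, 77.0, 77.4 and 73.5 TPM in KO slices and 72.0, 69.5, 73.7 and 74.1 TPM in WT slices, and the groups overlapped. Ndufaf6 had the fewest, 10.4, 10.0 and 10.0 TPM in KO slices and 10.7, 10.8, 10.8 and 10.5 TPM in WT slices, where the KO libraries were all lower but the test was not passed (log2 fold change -0.086 ± 0.050 (SE), adjusted p = 0.545, edgeR).

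Complex II, succinate dehydrogenase, also works in the tricarboxylic acid cycle and has 2 catalytic subunits and 2 membrane anchors. Sdhb, its iron-sulfur subunit, had 333, 332 and 342 TPM in KO slices and 314, 293, 310.3 and 305 TPM in WT slices. The KO libraries were all higher, the closest pair being KO replicate 2 and WT replicate 1 (log2 fold change 0.13 ± 0.034 (SE), adjusted p = 0.0239, edgeR), and the call was lost without KO replicate 3 (adjusted p = 0.106), without WT replicate 2 (adjusted p = 0.0638) and without WT replicate 4 (adjusted p = 0.064). Sdha, the flavoprotein that oxidises succinate, had 233, 228 and 227 TPM in KO slices and 217, 206, 221 and 211 TPM in WT slices. Here too every KO library was above the WT libraries, and the change did not pass the test (log2 fold change 0.094 ± 0.032 (SE), adjusted p = 0.0642, edgeR). The anchor Sdhc, the subunit with the most footprints, had 301, 322 and 321 TPM in KO slices and 331, 317, 307 and 339 TPM in WT slices, and the anchor Sdhd had 229.7 ± 3.97 TPM in KO and 223 ± 5.73 TPM in WT (SD). Both overlapped between the genotypes. Their log2 fold changes were -0.047 ± 0.046 and 0.036 ± 0.038.

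Complex III has 3 large nuclear-encoded subunits and 5 small ones here. The 3 large subunits all rose in footprints and none of the 5 small ones passed the test, with median log2 fold changes of 0.16 and -0.019. Across all genes 8.15% rose and 10.4% fell. Uqcrfs1, the Rieske iron-sulfur protein, had 434, 422 and 418 TPM in KO slices and 380.3, 366, 389 and 376 TPM in WT slices. The groups were well apart (log2 fold change 0.16 ± 0.031 (SE), adjusted p = 0.00522, edgeR). Uqcrc1, one of the core proteins of the matrix side, had 248, 233 and 228 TPM in KO slices and 211, 199, 221 and 208 TPM in WT slices, with KO replicate 3 a little above WT replicate 3 (log2 fold change 0.16 ± 0.038 (SE), adjusted p = 0.0117, edgeR). Uqcrc2, the other core protein, had 332, 315 and 316 TPM in KO slices and 295, 283, 302 and 296 TPM in WT slices. Its groups did not overlap (log2 fold change 0.12 ± 0.032 (SE), adjusted p = 0.0264, edgeR), but the call was lost without KO replicate 1 (adjusted p = 0.0584), without KO replicate 3 (adjusted p = 0.0688), without WT replicate 1 (adjusted p = 0.0504), without WT replicate 2 (adjusted p = 0.0683) and without WT replicate 4 (adjusted p = 0.0627). The small subunits overlapped between the genotypes. Uqcr11, the small subunit with the most footprints, had 910.2, 1044 and 936 TPM in KO slices and 969, 1025, 957 and 1026 TPM in WT slices, and Uqcrq, which holds the cytochrome b subunit, had 610.5 ± 22.8 TPM in KO and 599 ± 6.79 TPM in WT. The log2 fold changes of the 5 ran from -0.052 to 0.021.

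Complex IV, cytochrome c oxidase, had no member that rose in footprints and 1 that fell among 17 tested. Neither count was above the share over all genes, 8.15% higher and 10.4% lower. The 12 main forms, those made in most tissues, had a median log2 fold change of -0.0033 and no call. Ndufa4, the subunit with the most footprints of all 90 genes, had 3579, 3856 and 3647 TPM in KO slices and 3359.9, 3676, 3677 and 3568 TPM in WT slices, and the groups overlapped. Cox4i1, a regulatory subunit, had 1115, 1294 and 1301 TPM in KO slices and 1247, 1246, 1155 and 1204 TPM in WT slices, with KO replicate 1 the lowest of the 7 and the other KO libraries the highest. Cox5a, a matrix-side subunit, had 961, 990.4 and 1012 TPM in KO slices and 975, 928, 914 and 931 TPM in WT slices, which overlapped with a log2 fold change of 0.069 ± 0.038. Cox7c, a small membrane subunit, had 102, 121 and 150.3 TPM in KO slices and 183, 161, 126 and 126 TPM in WT slices. Its spread within each genotype was wide and the groups overlapped.

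Apart from Ndufa4l2, the tissue forms of complex IV are made mainly in heart, muscle, lung or testis. All 6 forms, Ndufa4l2 included, were scarce here. All 5 that could be tested had negative log2 fold changes in footprints, from -0.60 to -0.14. Cox6b2, the testis form of the subunit that joins the complexes of a dimer, had 5.13, 5.46 and 5.68 TPM in KO slices and 9.06, 7.67, 7.07 and 9.06 TPM in WT slices. The groups did not overlap, and it fell by 0.602 ± 0.11 (SE) on the log2 scale (adjusted p = 0.0479, edgeR). The call was lost when any of KO replicate 1, KO replicate 2, KO replicate 3, WT replicate 1, WT replicate 2 and WT replicate 4 was left out (adjusted p = 0.0606 to 0.151). Ndufa4l2 had 5.56, 6.37 and 5.33 TPM in KO slices and 7.14, 6.55, 7.38 and 6.47 TPM in WT slices, with the KO libraries lower and the test not passed (log2 fold change -0.28 ± 0.091 (SE), adjusted p = 0.451, edgeR). Cox7a1, the heart and muscle form, had 5.13, 6.54 and 7.91 TPM in KO slices and 7.51, 10.6, 7.49 and 7.63 TPM in WT slices, and Cox6a2, also of heart and muscle, had 14.2, 19.8 and 12.9 TPM in KO slices and 14.1, 18.7, 18.3 and 17.8 TPM in WT slices, both with overlap. Cox4i2, the lung form, had 4.14, 3.31 and 3.41 TPM in KO slices and 3.73, 3.93, 4.70 and 3.38 TPM in WT slices, and Cox8b, too low to be tested, had 1.26, 2.65 and 2.16 TPM in KO slices and 1.99, 1.66, 2.03 and 1.98 TPM in WT slices. No gene of the tables averaged below 1.01 TPM in footprints, and so near that lower limit a fold change may be understated.

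Complex V had 3 members that rose in footprints among 15 and none that fell, against 8.15% and 10.4% of all genes. Its median log2 fold change of 0.071 stood beside 0.065 in complex II. Atp5a1, the alpha subunit of the F1 head, had 1065, 996 and 971 TPM in KO slices and 874, 829, 930.3 and 865 TPM in WT slices. All KO libraries were higher (log2 fold change 0.20 ± 0.041 (SE), adjusted p = 0.00651, edgeR). Atp5b, the catalytic beta subunit, had 1238, 1160.0 and 1116 TPM in KO slices and 1041, 1022, 1138 and 1081 TPM in WT slices, where KO replicate 3 was below WT replicate 3 and the test was not passed (log2 fold change 0.12 ± 0.042 (SE), adjusted p = 0.0656, edgeR). Atp5c1, the gamma subunit that turns inside the head, had 526, 535 and 545 TPM in KO slices and 495, 460.1, 490.3 and 466 TPM in WT slices without overlap (log2 fold change 0.16 ± 0.037 (SE), adjusted p = 0.013, edgeR), and the call was lost without KO replicate 3 (adjusted p = 0.0588). Atp5f1, subunit b of the stalk that holds the head in place, had 719, 711 and 753 TPM in KO slices and 679.6, 638, 668 and 656 TPM in WT slices. The KO libraries were all higher (log2 fold change 0.13 ± 0.036 (SE), adjusted p = 0.0262, edgeR), and the call was lost without KO replicate 3 (adjusted p = 0.129), without WT replicate 2 (adjusted p = 0.0657), without WT replicate 3 (adjusted p = 0.0508) and without WT replicate 4 (adjusted p = 0.0715). Atp5o, which links stalk and head, had 478, 499 and 506 TPM in KO slices and 497, 465, 485 and 472 TPM in WT slices with overlap and a log2 fold change of 0.036 ± 0.038. Atp5e, the epsilon subunit and the shortest of the 90 genes, had 703, 837 and 846 TPM in KO slices and 904, 855, 804 and 845 TPM in WT slices, with overlap and a log2 fold change of -0.11 ± 0.068. Atp5d, the delta subunit, was higher in all KO libraries and did not pass (log2 fold change 0.10 ± 0.037 (SE), adjusted p = 0.0734, edgeR), and the stalk subunits Atp5h and Atp5j overlapped, at 0.0083 ± 0.041 and 0.038 ± 0.042.

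The 3 genes Atp5g1, Atp5g2 and Atp5g3 encode the same mature subunit c, whose copies form the rotating ring. None passed the test, and their log2 fold changes in footprints were 0.071 ± 0.048, 0.11 ± 0.041 and 0.096 ± 0.036. Atp5g3 had 1798, 1820.5 and 1874 TPM in KO slices and 1755, 1675, 1728 and 1659.6 TPM in WT slices, the KO libraries all higher. Atp5g2 had 309, 336 and 330.0 TPM in KO slices and 298, 298, 305 and 293 TPM in WT slices, again without overlap. Atp5g1 had 689, 778 and 765 TPM in KO slices and 720.2, 704, 713 and 681 TPM in WT slices, with KO replicate 1 inside the WT range. Without KO replicate 1 all 3 passed the test (adjusted p = 0.0247, 0.0115 and 0.0416, edgeR). Across the 16 alternatives run, that one included, Atp5g1 stayed uncalled in 15, Atp5g2 in 13 and Atp5g3 in 14. The 3 accessory subunits of the membrane part, Atp5j2, Atp5k and Atp5l, had no call, with a median of -0.11. Of these, Atp5j2, subunit f, had 747, 784 and 773 TPM in KO slices and 833, 836, 819 and 814 TPM in WT slices, all KO libraries lower and just short of the threshold (log2 fold change -0.11 ± 0.036 (SE), adjusted p = 0.0519, edgeR). Atp5s and Atp5sl, named Dmac2l and Dmac2 in RefSeq, are not counted as subunits of complex V. They had footprints of 32.8 ± 3.01 TPM in KO and 31.5 ± 1.78 TPM in WT and of 34.4 ± 0.556 TPM in KO and 33.7 ± 1.06 TPM in WT (SD), without a call.

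**Figure D2:**
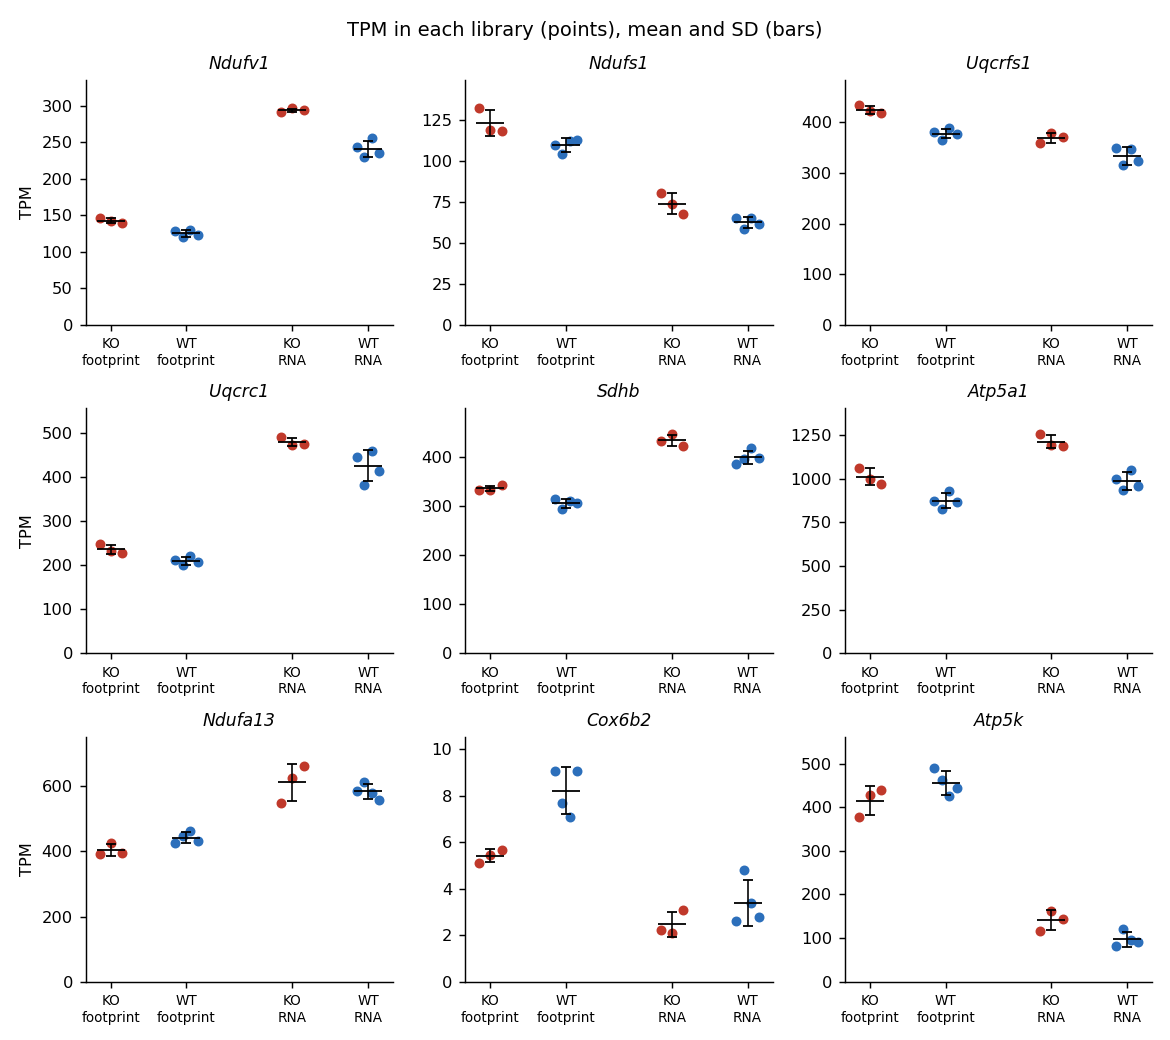
TPM of 9 members in each library (points), with the mean and SD as bars, KO left of WT, footprints on the left of each panel and RNA on the right, each axis starting at 0. Footprints of Ndufv1, Ndufs1, Uqcrfs1, Uqcrc1, Sdhb and Atp5a1 are higher in all 3 KO libraries than in any WT library, Cox6b2 footprints are lower in all 3, and Ndufa13 and Atp5k footprints overlap.

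In RNA, 5 of the 86 members tested rose in KO and none fell, against 2.11% higher and 2.77% lower among all 13877 genes tested (edgeR, adjusted p under 0.05). At an unadjusted p under 0.05, 27 of the 86 passed in either direction, against 20.5% of all genes. The median log2 fold change of the 86 was 0.082, and that of all genes -0.0049. Within genotypes, the members' median varied between RNA libraries with an SD of 0.088. Over 17 fits, the median change in RNA ran from -0.0089 to 0.10 for members below the members' median length. For those above it, the range was 0.077 to 0.15. Atp5a1 RNA was at 1255, 1193 and 1187 TPM in KO slices and 997, 935, 1052 and 959 TPM in WT slices. Every KO library was higher (log2 fold change 0.29 ± 0.051 (SE), adjusted p = 0.00778, edgeR). Ndufv1 RNA was at 292, 296 and 294 TPM in KO slices and 243, 230.0, 256 and 235 TPM in WT slices, with KO values almost identical to each other (log2 fold change 0.28 ± 0.053 (SE), adjusted p = 0.00999, edgeR). Atp5b RNA was at 1813, 1788 and 1736 TPM in KO slices and 1491, 1503, 1634 and 1488 TPM in WT slices, without overlap (log2 fold change 0.22 ± 0.051 (SE), adjusted p = 0.027, edgeR), and the call was lost without any of KO replicate 1, KO replicate 2, WT replicate 1, WT replicate 2 and WT replicate 4 (adjusted p = 0.0581 to 0.075). Ndufs1 RNA was at 80.3, 74.1 and 67.9 TPM in KO slices and 65.2, 58.5, 65.6 and 61.6 TPM in WT slices. The KO libraries were all higher (log2 fold change 0.23 ± 0.063 (SE), adjusted p = 0.0452, edgeR), and the call was lost without any of KO replicate 1, KO replicate 2, WT replicate 1, WT replicate 2 and WT replicate 4 (adjusted p = 0.0675 to 0.141). Atp5k, subunit e of the membrane part, had RNA of 116, 163 and 145 TPM in KO slices and 81.6, 122, 94.8 and 91.1 TPM in WT slices, where the lowest KO library was below WT replicate 2 (log2 fold change 0.56 ± 0.13 (SE), adjusted p = 0.0252, edgeR). Its call was lost without any of KO replicate 2, WT replicate 1, WT replicate 3 and WT replicate 4 (adjusted p = 0.0526 to 0.0806), and the RefSeq annotation names 4 pseudogenes of Atp5k whose reads may be shared with it. With each library left out in turn the count of members higher in RNA lay between 2 and 7, with 2 without KO replicate 2, WT replicate 1 or WT replicate 4.

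Atp5a1, Ndufv1 and Ndufs1 were the members that passed the test in both footprints and RNA. The other 8 genes with more footprints did not pass in RNA, where their log2 fold changes ran from 0.059 for Atp5f1 to 0.17 for Uqcrc1. Uqcrfs1 RNA was at 359, 378 and 371 TPM in KO slices and 350.0, 315, 347 and 323 TPM in WT slices without overlap (log2 fold change 0.15 ± 0.056 (SE), adjusted p = 0.148, edgeR). Sdha, whose footprints missed the threshold, had RNA of 231, 234 and 218 TPM in KO slices and 207, 185, 209 and 187 TPM in WT slices, again without overlap and just short of the threshold (log2 fold change 0.20 ± 0.058 (SE), adjusted p = 0.052, edgeR). The main forms of complex IV had a median of 0.082 in RNA and no call. The member lower in every KO library was Ndufaf2, an assembly factor, with RNA of 16.3, 23.6 and 21.7 TPM in KO slices and 27.7, 25.6, 26.8 and 25.6 TPM in WT slices, and it did not pass the test (log2 fold change -0.34 ± 0.12 (SE), adjusted p = 0.147, edgeR).

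Footprints per RNA, tested as whether the genotype effect differed between footprints and RNA in 1 model of the 14 libraries, gave no call among 89 members in edgeR, while 0.0139% of 14435 genes passed as higher and 0.0208% as lower. At an unadjusted p under 0.05, 11 members passed in either direction, against 10.8% of all genes. DESeq2 called 1 member as lower, against 0.263% of all genes, and the fit with the length trend of each library removed called 1 as lower, against 0.0485% of all genes. The median of the 89 was -0.045 on the log2 scale, and that of all genes -0.011. Combined over both assays, the spread of the members' median between libraries was 0.099 (SD). Atp5k had the smallest p. Its footprints were at 379, 429 and 439 TPM in KO slices and 490.3, 462, 426 and 445 TPM in WT slices, with overlap, while its RNA was higher in KO as given above, so that the log2 change of footprints per RNA was -0.70 ± 0.17 (SE), short of the threshold (adjusted p = 0.0912, edgeR). Ndufa13, called lower in footprints, had -0.22 ± 0.085. Ndufa2, at -0.33 ± 0.11, and Atp5j2, at -0.27 ± 0.098, had a smaller p than Ndufa13, and 31 of the 89 members had a positive change. For the 11 genes with more footprints the change of footprints per RNA lay between -0.11 and 0.067, and no adjusted p was under 0.536.

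Gene length, read from the ratio of count to TPM and given relative to the median gene, ran from 0.0735 for Atp5e to 1.58 for Ndufs1, and 61 of the 90 members belonged to the shortest 10% of all genes. All 11 that rose were among the 45 members above the members' median length, and both that fell were among the 45 below it. Across the 89 members, length and the footprint log2 fold change had a Spearman correlation of 0.666, and of 0.658 over the 84 left without the tissue forms of complex IV. Across all genes the correlation was -0.0932, and the median change of each 10% of genes by length lay between -0.048 and 0.022. The correlation is over genes measured in the same 7 libraries, which are not independent, and it describes members whose calls were already known. For RNA it was 0.222 over 86 members.

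Seen library by library, the median of the longer members minus that of the shorter members, in log2 footprints relative to the WT mean of each gene, was 0.14, 0.045 and 0.056 in the KO libraries and 0.014, -0.062, 0.051 and -0.0016 in the WT libraries. KO replicate 1 stood highest, and WT replicate 3 reached the range of the other KO libraries, so the groups overlapped. Over the 17 fits made, the members' correlation of length with the footprint change lay between 0.486, without KO replicate 1, and 0.696. With the length trend of each library over all genes removed it was 0.494. In RNA the longer minus shorter values were 0.12, 0.011 and 0.072 in KO and 0.059, -0.086, 0.0021 and 0.032 in WT, which overlapped as well. The part of fragment length or RNA quality in this pattern was not tested.

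**Figure D3:**
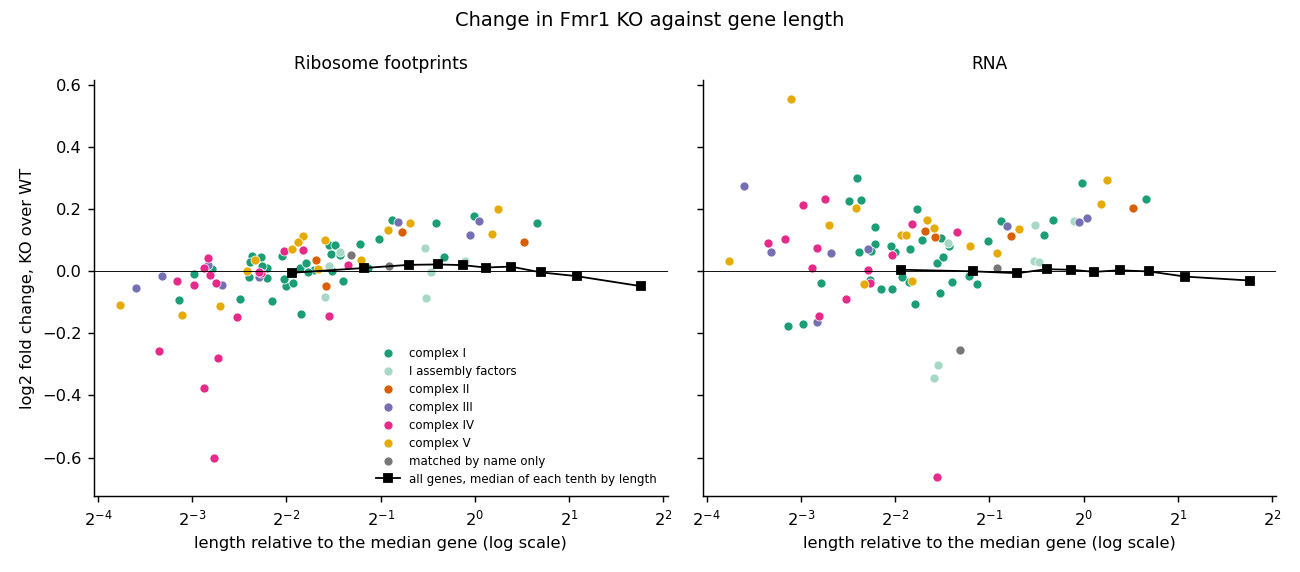
Log2 fold change in KO over WT of the members against its length relative to the median gene (log scale), footprints on the left and RNA on the right, coloured by complex, with the median of each 10% of all genes by length in black. Footprint changes of members run from mostly below 0 at the short end to mostly above 0 at the long end (Spearman correlation 0.666), while the medians of all genes stay between -0.048 and 0.022.

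In WT slices the 90 genes were abundant, with a median of 338 TPM in footprints and 301 TPM in RNA, against 15.4 and 22.1 TPM over all genes. Complex IV had the highest median footprint level by TPM, 993 TPM, followed by V with 825, III with 504, I with 309 and II with 264 TPM. The complex I assembly factors had a median of 35.6 TPM. The order depends on the division by length. Summed over members, complexes IV, I and V took 1.69%, 1.22% and 1.21% of WT footprint TPM. Of WT footprint counts, which are not divided by length, they took 0.393%, 0.493% and 0.662%. The levels of subunits that assemble in equal number differed within a complex. Within complex I they ran from 109.9 TPM for Ndufs1 to 902 TPM for Ndufc2, and within complex III from 209.9 TPM for Uqcrc1 to 994 TPM for Uqcr11. The levels in KO spanned nearly the same ranges, 123 to 849 TPM in complex I and 236 to 963 TPM in complex III. Complex II spanned less, 229 to 335 TPM in KO and 214 to 323 TPM in WT.

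The ratio of footprint TPM to RNA TPM, on the log2 scale, had a median over members of 0.053 ± 0.054 in KO and 0.079 ± 0.079 in WT (SD over libraries), above the medians of all genes, -0.36 ± 0.0091 in KO and -0.37 ± 0.014 in WT. By TPM the order of the complexes began with III (0.52 ± 0.071 in KO and 0.54 ± 0.090 in WT), then V (0.31 ± 0.16 in KO and 0.39 ± 0.10 in WT), IV (0.085 ± 0.18 in KO and 0.24 ± 0.12 in WT), II (0.020 ± 0.011 in KO and 0.12 ± 0.053 in WT) and I (0.0025 ± 0.031 in KO and -0.0015 ± 0.099 in WT). Neighbours in this order were closer to each other than the sum of their SDs in both genotypes. The order depends on the scale, since the ratio of CPM, which is not divided by length, put complex IV last in WT (0.26, against 0.84 in III, 0.69 in V, 0.42 in II and 0.30 in I). The complex I assembly factors lay lowest, at -0.54 ± 0.11 in KO and -0.44 ± 0.11 in WT. Single genes ranged more widely, and those named next were chosen after their values were seen. Atp5k, Ndufb3, an accessory membrane-arm subunit, and Uqcr11 stood highest in WT, with 1.57 ± 0.16, 1.92 ± 0.13 and 1.85 ± 0.24 in KO and 2.24 ± 0.28, 2.23 ± 0.29 and 2.13 ± 0.21 in WT. Cox7a2l and Cox7c stood lowest, with -1.38 ± 0.14 and -1.66 ± 0.33 in KO and -1.36 ± 0.23 and -1.29 ± 0.40 in WT. The RefSeq annotation names 1 pseudogene of Cox7c, whose reads may be shared with it. Shorter members had the higher ratios in WT (Spearman correlation with length -0.543 over 90 members, and -0.260 over all genes), and the length that the authors' software divided by is not stated to be the coding or the whole transcript length.

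**Figure D4:**
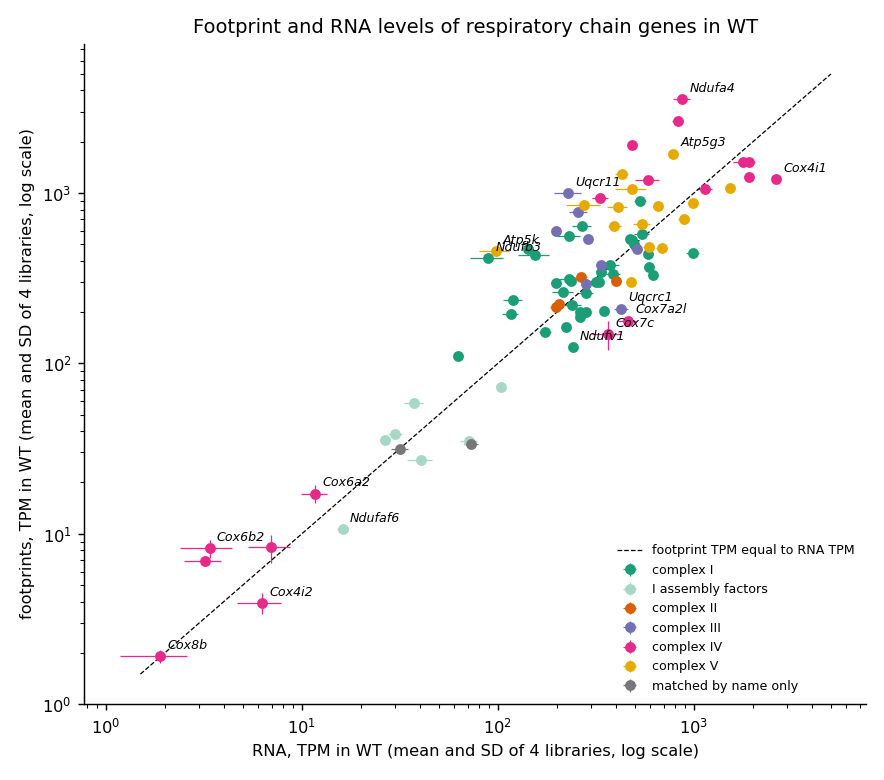
Footprint TPM against RNA TPM of the members in WT slices, mean and SD of 4 libraries, both axes logarithmic, coloured by complex, with a dashed line where both are equal. The tissue forms of complex IV lie at the bottom left, below 20 TPM in both assays, Ndufa4 has the most footprints, and Cox4i1 has the most RNA.

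Several subunits have alternative genes, and in these slices 1 form dominated in all but the c subunit. Cox4i2 took 0.295% ± 0.0644 in KO and 0.324% ± 0.0554 in WT of the footprint TPM of Cox4i1 and Cox4i2 together (SD), and Cox6b2 took 0.461% ± 0.00912 in KO and 0.683% ± 0.0704 in WT of its pair. For Cox6a2 the share was 1.24% ± 0.240 in KO and 1.37% ± 0.150 in WT, for Cox8b 0.133% ± 0.0373 in KO and 0.126% ± 0.0133 in WT, and for Ndufa4l2 0.155% ± 0.00942 in KO and 0.193% ± 0.0162 in WT. Of the main forms, Cox8a had 1360.5, 1592 and 1543 TPM in KO slices and 1612, 1518, 1429 and 1543 TPM in WT slices. Cox6a1 had 1189, 1296 and 1230.1 TPM in KO slices and 1207, 1244, 1293 and 1202 TPM in WT slices. Cox6b1 had 1106, 1201 and 1202 TPM in KO slices and 1239, 1204, 1146 and 1185 TPM in WT slices. All of these overlapped between the genotypes, and none passed the test. Cox7a2 had 1438, 1575 and 1532 TPM in KO slices and 1464, 1577, 1463 and 1578 TPM in WT slices, again with overlap. In the Cox7a set, Cox7a2l took 10.5% ± 0.572 in KO and 10.4% ± 0.576 in WT of footprints but 22.3% ± 1.69 in KO and 20.6% ± 3.46 in WT of RNA. The c subunit was shared among its 3 genes, and the shares differed between the assays by more than the spread between libraries. Atp5g3 took 63.1% ± 1.14 in KO and 62.9% ± 0.294 in WT of footprints and 37.3% ± 0.601 in KO and 36.5% ± 0.399 in WT of RNA. Atp5g1 took 25.6% ± 0.950 in KO and 26.0% ± 0.193 in WT of footprints and 42.1% ± 1.23 in KO and 41.2% ± 0.824 in WT of RNA, so the gene with the most RNA was not the one with the most footprints.

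The ATP synthase has 3 alpha, 3 beta and 8 c subunits for each copy of the other subunits. Footprints of alpha, from Atp5a1, were 1011 ± 48.5 TPM in KO and 875 ± 42.1 TPM in WT, and those of gamma, present once, 535 ± 9.48 TPM in KO and 478 ± 17.5 TPM in WT. The 3 c genes summed to 2900.4 ± 91.9 TPM in KO and 2708 ± 63.6 TPM in WT. Per copy, alpha had 337 TPM in KO and 292 TPM in WT, beta had 390.4 TPM in KO and 357 TPM in WT, and c had 363 TPM in KO and 338 TPM in WT. Across the 10 subunits compared, the highest over the lowest was 5.87 in KO and 5.67 in WT before and 3.97 in KO and 4.44 in WT after division by copy number. F6, from Atp5j, was the highest per copy. The ratio compares levels between genes and depends on the length each gene was divided by.

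**Figure D5:**
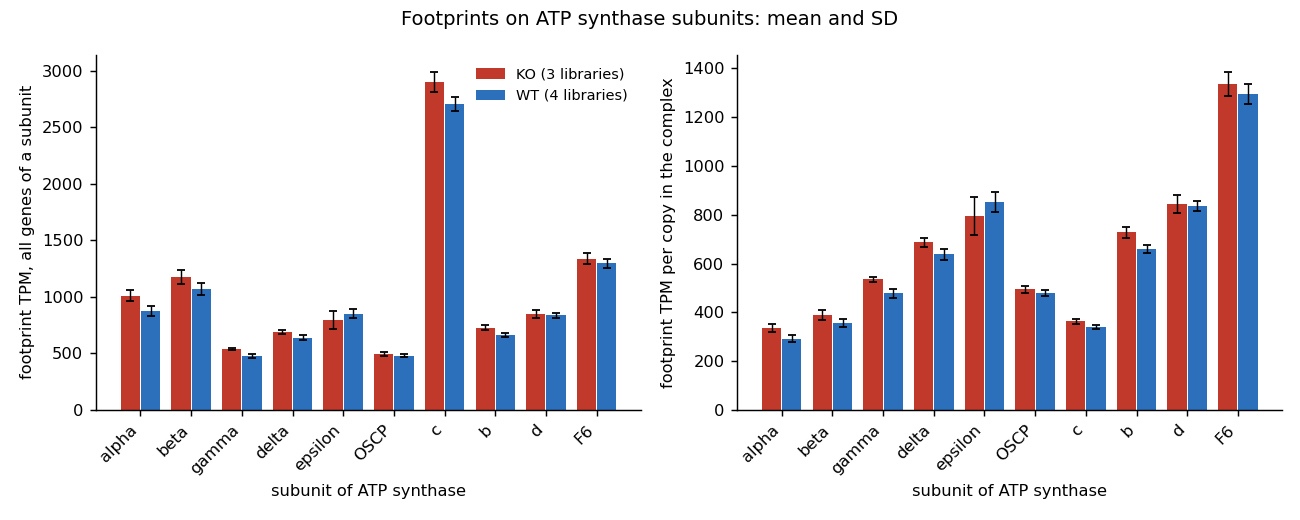
Footprint TPM of 10 subunits of the ATP synthase, mean and SD, KO (3 libraries) left of WT (4 libraries), as measured on the left and divided by the copies of the subunit in the complex on the right. The c subunit, summed over 3 genes, stands highest on the left and falls among alpha and beta on the right, where F6 is the highest.

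Other genes of the pathway were counted from lists. The list of the tricarboxylic acid cycle, which feeds the chain, also holds the pyruvate dehydrogenase complex genes Pdha1, Pdhb, Dlat and Pdhx. It had 8 of 18 genes higher in footprints and none lower, with a median log2 fold change of 0.10. In RNA 3 of 18 were higher, with a median of 0.17 (edgeR). Over all genes 8.15% were higher in footprints and 2.11% in RNA. Pdha1 and Pdhb were among the 8, and Pdhb was among the 3. Dlst, the succinyltransferase of the 2-oxoglutarate dehydrogenase complex, had 124 TPM in KO and 103 TPM in WT (log2 fold change 0.26 ± 0.034, adjusted p = 9.20e-04) in footprints. Mdh2, the mitochondrial malate dehydrogenase, had 636 TPM in KO and 544 TPM in WT (log2 fold change 0.22 ± 0.035, adjusted p = 0.00247). Ogdh, another part of the Dlst complex, had 117 TPM in KO and 102 TPM in WT (log2 fold change 0.19 ± 0.035, adjusted p = 0.00447). The list has a median relative length of 0.967, against 0.281 for the respiratory chain genes. The list was chosen with earlier results of these data known and is no independent evidence of its direction.

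Of 34 assembly factors whose symbols lie outside the rule, 2 rose and 1 fell in footprints, which is not above the shares over all genes. Those shares were 8.15% higher and 10.4% lower in footprints, and 2.11% higher and 2.77% lower in RNA. The same shares stand beside the other lists of this paragraph. Ecsit and Foxred1, both of complex I assembly, had 31.2 TPM in KO and 27.0 TPM in WT (log2 fold change 0.20 ± 0.053, adjusted p = 0.0242) and 18.1 TPM in KO and 16.4 TPM in WT (log2 fold change 0.14 ± 0.042, adjusted p = 0.0449). Coa6, a copper-handling factor of complex IV, had 54.4 TPM in KO and 63.9 TPM in WT (log2 fold change -0.24 ± 0.068, adjusted p = 0.0309). In RNA 3 of 33 rose, Uqcc3 with 40.0 TPM in KO and 22.6 TPM in WT (log2 fold change 0.80 ± 0.17, adjusted p = 0.0165), Coa7 with 24.0 TPM in KO and 17.5 TPM in WT (log2 fold change 0.47 ± 0.10, adjusted p = 0.0208) and Foxred1 with 41.6 TPM in KO and 32.8 TPM in WT (log2 fold change 0.32 ± 0.077, adjusted p = 0.0283). Among 12 regulators of mitochondrial genes, Ppargc1a, a coactivator known for raising mitochondrial gene expression, was the one that changed in footprints, with 12.7 TPM in KO and 14.9 TPM in WT (log2 fold change -0.24 ± 0.040, adjusted p = 0.0026), and none changed in RNA. Of 4 measured subunits outside the rule, none passed: cytochrome c, from Cycs, had 1389 TPM in KO and 1391 TPM in WT (log2 fold change -0.0096 ± 0.046, adjusted p = 0.936) and Cyc1 had 156 TPM in KO and 145 TPM in WT (log2 fold change 0.10 ± 0.033, adjusted p = 0.0526). Of 22 genes of protein import 1 rose and none fell in footprints, with a median log2 fold change of 0.032. The cytosolic ribosomal proteins, also short and abundant, had 4 of 81 higher and 2 lower, with a median of 0.018.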

How the data were processed

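The authors deposited estimated counts and TPM per gene. Per the submitters' processing notes, cutadapt 1.7.1, Trimmomatic 0.32, Bowtie2 2.1.0, TopHat2 2.0.9, SAMtools 0.0.19, bedtools, RSEM 1.2.11 and mm10 were used, with roles and order not given in the sources used here. The deposited estimated counts are not whole numbers in 100% of values, a count divided by its TPM gives 1 factor for the gene multiplied by 1 for the library (largest departure 9.77e-15 in natural log), and no gene has a mean below 1.03 TPM in RNA or 1.01 TPM in footprints, so fold changes of low genes may be compressed. Within groups, replicates 1 and 2 against 3 and 4 hold 3.31% of the variance in RNA and 4.46% in footprints, a smaller share than an even spread over the directions among libraries would give, so the p-values may be too small. The labels call each pool of slices a biological replicate.

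Counts were rounded and fitted with edgeR 4.0.16 in R 4.3.3 (filterByExpr with minimum count 10, TMM, robust quasi-likelihood test) within each assay, with KO over WT, and as an interaction over both assays, which treats the libraries as independent although both assays came from the same lysates. For genes with few counts edgeR takes the larger of its p and a Poisson p. The SE was taken from the F statistic, as the size of the log2 fold change divided by its root. P-values were adjusted over all genes tested, and a gene was called at an adjusted p under 0.05. Values by library are given for members called, the members with the most and the fewest footprints of a complex, paralog sets and core subunits. The members and lists were chosen with earlier results of these data known. KO and WT libraries of the same number did not vary together (correlations of deviations -0.022, 0.012 and -0.325 in RNA and -0.104, 0.143 and -0.508 in footprints). DESeq2 1.42.0, limma 3.58.1 on log2(TPM + 1), other scaling, no filter and left-out libraries were alternatives. Relative levels are seen, so a change shared by all genes is not. The values of 1 member are not reported here, and it is left out of the figures. Of the members, 10 have a named pseudogene in the annotation.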

Additional observations from a re-analysis of the deposited data

Results flagged for a closer look

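Among 46 groups of 4 WT libraries looked at, 2 held a library that stood apart from the other 3 by Dixon's gap test, and chance flags about 1 in 20 groups. Atp5b RNA in WT replicate 3 was 1633.65 TPM, against 1488 to 1503 TPM in the other WT libraries. Uqcrc2 RNA in WT replicate 3 was 303.506 TPM, against 270.6 to 276 TPM in the others. Without WT replicate 3 the RNA of Atp5b still passed the test (adjusted p = 0.0159, edgeR).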

How the results depend on the processing

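The increase of Ndufv1, Uqcrfs1, Atp5a1 and Ndufs3 footprints and of Atp5a1 and Ndufv1 RNA passed the test in all 16 alternatives each, and no called gene turned its direction in any alternative run on it. The count of members higher in footprints (11) was 5 with the replicate number as a block, which the libraries do not bear out as a pairing, and 7 to 16 with a library left out. The count lower in footprints (2) was 1 with DESeq2, with the length trend removed and with a non-robust fit, 0 with the replicate block, with one fit over both assays and with the replicate set as a covariate (chosen after seeing the data), and 0 to 1 with a library left out. The members' median log2 fold change in footprints (0.016) ran from -0.0087 to 0.060 with a library left out and was below 0 without KO replicate 2 or KO replicate 3. Cox4i1 footprints, not called, changed sign without KO replicate 2 (-0.015), KO replicate 3 (-0.025) or WT replicate 3 (-0.0074). The count higher in RNA (5) was 3 with limma on log2(TPM + 1), 3 with the replicate block, 11 with one fit over both assays and 2 to 7 with a library left out. No member passed in footprints per RNA except 1 lower with DESeq2 and 1 lower with the length trend removed. From CPM in place of TPM, the median log2 ratio of footprints to RNA in WT was 0.838 for complex III, 0.694 for V, 0.417 for II, 0.298 for I and 0.256 for IV, so that complex IV came last. The causes were not tested. The alternative per coding codon was not run. RNA libraries held fewer counts than footprint libraries, which limits RNA and footprints per RNA.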
